A study of Mus musculus with 11 samples.

Results

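The tumour suppressor p53 is a transcription factor that switches on genes for cell cycle arrest, DNA repair and cell death when a cell is stressed or its DNA is damaged. *Cdkn1a* encodes p21, an inhibitor of cyclin-dependent kinases, and is the most widely used readout of p53 activity. In the liver, p21 is also known for restraining hepatocyte division. The expression of 10 p53 target genes, chosen by symbol, was examined across livers. They are *Cdkn1a*, *Mdm2*, *Ccng1*, *Bax*, *Perp*, *Trp53inp1*, *Phlda3*, *Gdf15*, *Btg2* and *Eda2r*. Of these 10 genes, 8 had counts among the 13669 genes of the table, and *Phlda3* and *Eda2r* were not analysed here. All 8 passed the filter on low counts, with at least 29 reads in every liver, and the filter left 13334 genes for testing.

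The RNA came from whole liver of 11 wild-type male C57BL/6J mice on chow, each injected with a recombinant adeno-associated virus through the tail vein. In 6 mice (AAV-TuD) the virus expressed a tough decoy, an RNA with binding sites that trap *miR-379* and *miR-541*, and in 5 mice (AAV-NC) it carried a negative control sequence. Both groups therefore carried a viral vector, and neither was compared with uninjected liver. Expression from the virus was under a liver-specific promoter made for hepatocytes, while the RNA was taken from all cells of the liver. The age of each mouse and its time after the virus are not given in the labels. Replicate numbers are 1, 2, 6, 7 and 8 for AAV-NC and 3, 4, 5, 9, 10 and 11 for AAV-TuD.

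p53 binds DNA as a tetramer on a pair of adjacent 10-base elements, here called p53 half-sites. Promoter windows of 300 bases, from 250 before to 50 after each RefSeq start, were searched on both strands for this motif. A window was given for 8 of the 10 genes, and *Perp* and *Trp53inp1* had none in the table. A p53 half-site without mismatch stood in the windows of 4 of these 8 genes (*Cdkn1a*, *Mdm2*, *Ccng1* and *Bax*), while 9.55% of all 27025 genes with a window had one. A pair with at most 2 mismatches and at most 1 base between its elements stood in 3 of them (*Cdkn1a*, *Ccng1* and *Bax*), against 0.807% of all genes. The matches are shown so that they can be read beside the expression values of these genes. They are printed 5′ to 3′ on the strand of the gene (GRCm38.p6, RefSeq), with the matched bases in capitals, mismatched bases included. They lie upstream of the annotated gene body in every case.
*Cdkn1a* pair, chr17:29090923-29090952, plus strand: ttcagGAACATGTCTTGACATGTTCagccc
*Cdkn1a* single element, chr17:29090896-29090925, plus strand: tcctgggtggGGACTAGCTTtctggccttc
*Mdm2* single element, chr10:117710925-117710954, minus strand: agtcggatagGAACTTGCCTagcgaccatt
*Ccng1* pair, chr11:40755457-40755486, minus strand: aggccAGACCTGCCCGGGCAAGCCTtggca
*Bax* pair, chr7:45467075-45467103, minus strand: tcccAGGCAAGCTTTGAACTTGCGGcaat
*Cdkn1a* had 2 windows, and only 1 of them held a match. The *Cdkn1a* pair had 1 mismatch and began 51 bases before the RefSeq start of that window. The *Ccng1* pair had 1 mismatch and the *Bax* pair had 2, with 1 base between its elements. No match stood in the windows of *Gdf15*, *Btg2*, *Phlda3* and *Eda2r*, which says only that these letters are absent from 300 bases.

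The libraries held 8148531 to 12043959 counted reads per liver. The major urinary protein genes took 38.6% of the reads of AAV-NC liver 7, 30.9% of AAV-TuD liver 3 and 28.4% of AAV-TuD liver 5, and at most 18.7% elsewhere. Values are therefore given as CPM, the reads of a gene scaled to the size of its library, after TMM scaling between libraries. The 2 groups lay apart on the first principal component, with AAV-NC livers between -21.8 and -13.2 and AAV-TuD livers between 1.496 and 21.5. AAV-TuD liver 3 was the one nearest to the AAV-NC livers. It recurs below, and some calls and correlations that change with it are also given without it. The decoy's own target RNAs were not analysed here, so that the labels were not checked against them.

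*Cdkn1a* was higher with AAV-TuD in 5 of 6 livers. The gene (ENSMUSG00000023067) lies at chr17:29090976-29100727 on the plus strand (GRCm38, GENCODE M21, as for all positions of genes given here). The 5 AAV-NC livers 1, 2, 6, 7 and 8 had 10.03, 15.2, 3.32, 17.0 and 9.34 CPM. AAV-TuD livers 3, 4, 5, 9, 10 and 11 had 13.1, 59.3, 61.2, 33.7, 43.4 and 42.4 CPM. Liver 3 thus lay inside the AAV-NC range, and the other 5 lay above every control. The means were 10.99 ± 5.41 CPM (SD, n = 5) and 42.2 ± 17.7 CPM (SD, n = 6), a log2 fold change of 1.95 ± 0.37 (SE) and a 3.87-fold difference. This passed the threshold (edgeR quasi-likelihood test with Benjamini-Hochberg adjustment, adjusted p = 0.00390). Leaving out each liver in turn kept the adjusted p under 0.05, with log2 fold changes from 1.71 to 2.16. The spread of *Cdkn1a* was wide in both groups, with a coefficient of variation of 49.2% in AAV-NC and 42.0% in AAV-TuD livers.

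Of the 8 genes tested, 4 rose with AAV-TuD (*Cdkn1a*, *Gdf15*, *Trp53inp1* and *Perp*) and 0 fell in edgeR, and none was lower at an unadjusted p under 0.05. Over all 13334 genes tested, 7.24% rose and 4.33% fell. DESeq2 and limma-voom also called 4 higher and 0 lower, with 7.95% of all genes higher in DESeq2. The median log2 fold change was 0.47 over the 8 genes and -0.00 over all genes. For *Gdf15*, *Trp53inp1* and *Perp* the lowest AAV-TuD liver was still above the highest AAV-NC liver, a pattern seen in 4.11% of all genes. The reverse pattern, seen in 3.28% of all genes, was not found among the 8. RNA from whole liver cannot tell more RNA per cell from more cells of a type.

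*Gdf15* (chr8:70629393-70632456, minus strand) encodes a secreted stress hormone of the TGF-β family that acts on food intake through the brain stem. It had 4.06, 7.18, 5.53, 7.64 and 6.52 CPM in AAV-NC livers 1, 2, 6, 7 and 8. In AAV-TuD livers it ranged from 11.4 CPM in liver 3 to 36.5 CPM in liver 4, with a median of 18.0 CPM. The groups did not overlap, and liver 3 was again the lowest of its group. The means of 6.19 ± 1.43 (SD, n = 5) and 20.5 ± 8.99 CPM (SD, n = 6) gave a log2 fold change of 1.73 ± 0.27 (edgeR adjusted p = 0.00114). *Gdf15* had the smallest p value of the 8 genes and ranked 98 of 13334, whereas *Cdkn1a* ranked 278.

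*Trp53inp1* (chr4:11156431-11174379, plus strand) encodes a nuclear protein that acts with p53 in stress responses and has a part in autophagy. AAV-NC livers 1, 2, 6, 7 and 8 had 17.9, 14.2, 13.3, 17.5 and 10.9 CPM. AAV-TuD livers ranged from 22.4 CPM in liver 5 to 44.5 CPM in liver 10, with a median of 30.7 CPM. The lowest AAV-TuD liver here was liver 5, which had the most *Cdkn1a*. The log2 fold change was 1.11 ± 0.20 (edgeR adjusted p = 0.00320, n = 5 and 6 livers).

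*Perp* (chr10:18845020-18857073, plus strand) encodes a membrane protein of desmosomes that is also linked to p53-dependent cell death. It had 23.99, 25.7, 20.9, 17.2 and 18.6 CPM in AAV-NC livers 1, 2, 6, 7 and 8, and between 28.3 and 33.2 CPM in AAV-TuD livers, with a median of 30.4 CPM. The AAV-TuD values were close together, with a coefficient of variation of 6.00%, so that a small difference stood clear of the spread. The log2 fold change was 0.51 ± 0.10 (edgeR adjusted p = 0.00520). Among the 966 genes that rose, ranked by fold, *Cdkn1a* stood at place 74, *Gdf15* at 104, *Trp53inp1* at 339 and *Perp* at 798.

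The remaining 4 genes did not pass the threshold. *Mdm2* (chr10:117688875-117710758, minus strand), the ubiquitin ligase that p53 induces and that degrades p53 in turn, came nearest. It had 13.2, 17.4, 13.4, 14.6 and 15.8 CPM in AAV-NC livers 1, 2, 6, 7 and 8. In AAV-TuD livers it ranged from 15.1 CPM in liver 3 to 27.9 CPM in liver 10, with a median of 18.8 CPM. Livers 4, 5 and 10 lay above all controls and livers 3, 9 and 11 did not. The log2 fold change was 0.42 ± 0.15, with a 95% confidence interval from 0.08 to 0.77 (edgeR adjusted p = 0.0827). Without AAV-TuD liver 3 the adjusted p was 0.0367, and with scaling by library size alone it was 0.0310.

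*Ccng1* (chr11:40748552-40755311, minus strand) encodes cyclin G1, which takes part in the *Mdm2* feedback on p53. AAV-NC livers 1, 2, 6, 7 and 8 had 8.83, 13.5, 9.96, 10.9 and 7.30 CPM, and AAV-TuD livers had 8.73 to 16.1 CPM with a median of 13.0 CPM. Only livers 4 and 10 lay above the highest control. The log2 fold change was 0.35 ± 0.18, with an interval from -0.05 to 0.75 (edgeR adjusted p = 0.225).

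*Bax* (chr7:45461697-45466898, minus strand) encodes the pore-forming protein of the outer mitochondrial membrane in apoptosis. It had 3.82, 4.53, 3.32, 3.63 and 4.09 CPM in AAV-NC livers 1, 2, 6, 7 and 8, and 3.24 to 5.47 CPM in AAV-TuD livers with a median of 3.98 CPM. The AAV-TuD values reached both above and below the control range. The log2 fold change was 0.09 ± 0.18, with an interval from -0.32 to 0.50 (edgeR adjusted p = 0.815), and it came to between -0.01 and 0.15 when single livers were left out. These were 29 to 60 reads per liver, and the upper end of the interval lies below the log2 fold change of *Trp53inp1*.

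*Btg2* (chr1:134075170-134079120, minus strand) encodes an antiproliferative protein that recruits the deadenylation machinery to mRNA. It had 5.97, 5.04, 5.31, 4.88 and 12.8 CPM in AAV-NC livers 1, 2, 6, 7 and 8, and 6.67 to 10.8 CPM in AAV-TuD livers with a median of 8.45 CPM. Liver 8 alone lay above all AAV-TuD livers, and the other 4 controls lay below them. The log2 fold change was 0.31 ± 0.23, with an interval from -0.20 to 0.82 (edgeR adjusted p = 0.420). Without AAV-NC liver 8 it was 0.69 and passed the threshold (edgeR adjusted p = 0.0104).

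The promoter matches printed above can be set beside these values. Of the 4 genes with counts and a p53 half-site in the window, *Cdkn1a* rose and *Mdm2*, *Ccng1* and *Bax* did not pass. *Gdf15* rose and has no match in its windows. The exons of *Cdkn1a* overlap a transcript on the opposite strand (AC167363.2), and those of *Bax* overlap a transcript on the same strand (Gm45808). Neither has counts, and the strand setting of the counting is not stated, so reads of such neighbours cannot be told apart from those of the gene.

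**Figure D1:**
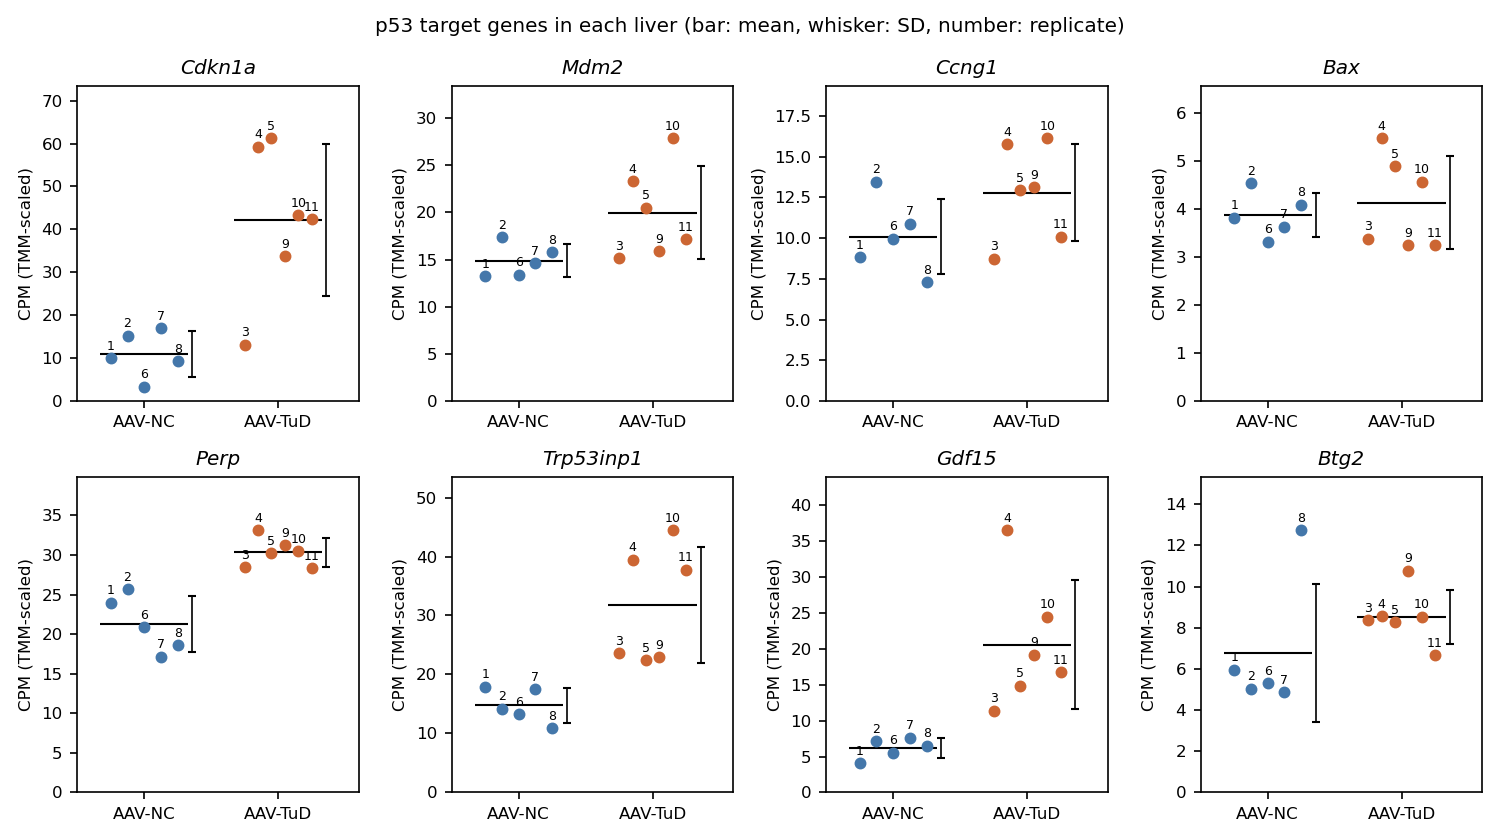
Expression of the 8 p53 target genes in each liver, in TMM-scaled CPM on the vertical axis of each panel, with 5 AAV-NC livers in blue and 6 AAV-TuD livers in orange. Horizontal bars are means, whiskers are SD and small numbers are replicate numbers, and AAV-TuD liver 3 lies within the AAV-NC range for *Cdkn1a* at 13.1 CPM.

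Which of these genes moved with *Cdkn1a* was then examined from liver to liver within the groups. Each liver's log2 CPM was expressed as its deviation from the mean of its own group, so that the difference between AAV-TuD and AAV-NC did not enter. For *Cdkn1a* the deviations were 0.06, 0.65, -1.48, 0.81 and -0.04 in AAV-NC livers 1, 2, 6, 7 and 8. They were -1.51, 0.64, 0.69, -0.17, 0.19 and 0.16 in AAV-TuD livers 3, 4, 5, 9, 10 and 11. One liver in each group, AAV-NC liver 6 and AAV-TuD liver 3, was thus far below its group.

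No gene of the 13333 tested had a slope on *Cdkn1a* that passed the threshold in edgeR, and 918 had an unadjusted p under 0.05. The smallest adjusted p was 0.535. The relations of the 7 other p53 targets are therefore given as sizes, and none of them holds after adjustment over all genes. The Pearson r of the deviations over 11 livers was at least 0.5 for 4 of the 7 (*Bax*, *Mdm2*, *Ccng1* and *Gdf15*), against 9.57% of all genes. Positive slopes with an unadjusted p under 0.05 were found for 3 of the 7 (*Gdf15*, *Mdm2* and *Ccng1*), against 4.25% of all genes.

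*Bax* had the highest r, 0.61 (permutation p = 0.0327 within groups), with Spearman's rho of 0.62 (permutation p = 0.0495). Its slope was 0.21 ± 0.11 log2 units per log2 unit of *Cdkn1a* (edgeR adjusted p = 0.754). *Bax*, which did not pass the threshold between the groups, was thus first among the 7 by r over all livers, but not by the other measures. *Ccng1* was ahead of *Bax* by rho (0.65 against 0.62). It was also ahead by r without the livers far below their groups (0.59 against 0.56) and over AAV-TuD livers alone (0.73 against 0.66). *Mdm2* had r = 0.57 (permutation p = 0.0597) and rho = 0.59 (permutation p = 0.0622), with a slope of 0.20 ± 0.09 (edgeR adjusted p = 0.720). *Ccng1* had r = 0.55 (permutation p = 0.103) and rho = 0.65 (permutation p = 0.0490), with a slope of 0.22 ± 0.10 (edgeR adjusted p = 0.721). *Gdf15* had r = 0.55 (permutation p = 0.0992) and rho = 0.49 (permutation p = 0.146). Its slope was the steepest of the 7, at 0.39 ± 0.15 (edgeR adjusted p = 0.649). *Mdm2*, *Ccng1* and *Bax*, the genes with a p53 half-site printed above beside *Cdkn1a*, were among these 4, as was *Gdf15*, which has no match. *Perp* and *Trp53inp1* had no window to search, and a relation between the motif and r was not tested.

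The other 3 genes had lower coefficients, although *Trp53inp1* and *Perp* rose with AAV-TuD. *Trp53inp1* had r = 0.38 (permutation p = 0.286) and rho = 0.25 (permutation p = 0.464). *Perp* had r = 0.13 (permutation p = 0.778) and rho = 0.08 (permutation p = 0.831), and its r was 0.49 without AAV-NC liver 7. *Btg2* had r = -0.09 (permutation p = 0.784) and rho = -0.40 (permutation p = 0.237). The differences between these coefficients were not tested.

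The values rest in part on the pair of livers with low *Cdkn1a*. Without AAV-TuD liver 3 and AAV-NC liver 6, r over the other 9 livers was 0.59 for *Ccng1*, 0.56 for *Bax*, 0.40 for *Mdm2* and 0.40 for *Gdf15*. It was 0.21 for *Trp53inp1*, 0.00 for *Perp* and -0.61 for *Btg2*. For *Ccng1* these removals acted in opposite directions, with r = 0.30 without AAV-TuD liver 3 alone and 0.73 without AAV-NC liver 6 alone. Without AAV-TuD liver 3 alone, r was 0.30 for *Gdf15*, 0.40 for *Mdm2*, 0.22 for *Trp53inp1* and 0.55 for *Bax*. Of the 4 genes with r of at least 0.5, only *Bax* thus stayed at that level without this liver, and only *Bax* kept it under each removal of a single liver. Over the 6 AAV-TuD livers alone, r was 0.73 for *Ccng1*, 0.66 for *Bax*, 0.64 for *Mdm2*, 0.64 for *Gdf15*, 0.57 for *Perp*, 0.39 for *Trp53inp1* and -0.11 for *Btg2*.

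**Figure D2:**
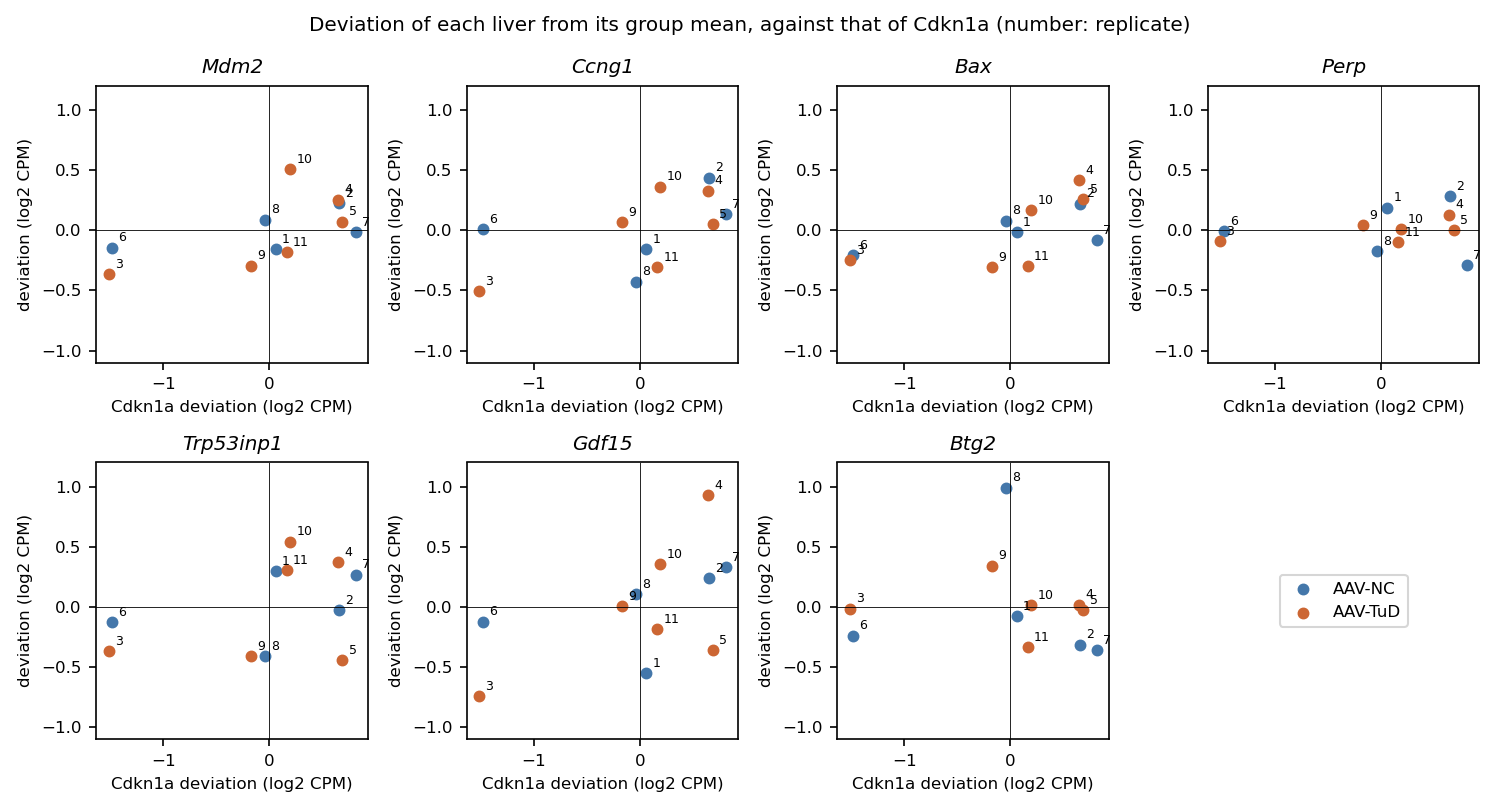
Deviation of each liver from its group mean for 7 p53 target genes (vertical axis, log2 CPM) against that of *Cdkn1a* (horizontal axis, log2 CPM), with AAV-NC livers in blue, AAV-TuD livers in orange and replicate numbers beside the points. AAV-TuD liver 3 and AAV-NC liver 6 lie far to the left at -1.51 and -1.48, and r is highest for *Bax* at 0.61 and lowest for *Btg2* at -0.09.

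Other p53 targets were taken from a list written by role, of which 44 of 55 genes were tested. Of these, 5 rose (*Tnfaip8*, *Zmat3*, *Plk2*, *Apaf1* and *Tnfrsf10b*, the last of which passed the filter on low counts only through AAV-TuD livers) and 0 fell in edgeR, with a median log2 fold change of 0.12. At an unadjusted p under 0.05, 15 were higher and 4 lower, and DESeq2 and limma-voom each called 6 higher and 0 lower. The count of 5 of 44 is to be read against the 7.24% of all genes that rose. With library size alone 13 of the 44 rose, while the median of all genes was then 0.23. Without AAV-TuD liver 3 the count was 9, without AAV-NC liver 6 it was 3 and without AAV-TuD liver 4 it was 2.

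Among arrest and feedback genes, 2 of 14 rose. *Zmat3*, a zinc finger RNA-binding protein that controls splicing, had 2.98 to 4.54 CPM in AAV-NC and 5.30 to 9.72 CPM in AAV-TuD livers. The groups did not overlap, and the log2 fold change was 0.88 ± 0.19 (edgeR adjusted p = 0.00779). *Plk2*, a polo-like kinase, had a log2 fold change of 0.70 ± 0.19 (edgeR adjusted p = 0.0245), and no longer passed without AAV-NC liver 1, 2 or 7 or AAV-TuD liver 4 or 9. Genes for the sestrins, *Btg1*, *Gadd45a* and *Ppm1d* were among the 12 that did not pass. *Plk3*, named after its values were seen, had the lowest value of the list, with a log2 fold change of -1.36 ± 0.43 (edgeR adjusted p = 0.0525).

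Among cell death genes, 3 of 15 rose, and the median log2 fold change of the 15 was 0.43. *Tnfaip8*, a regulator of apoptosis induced by TNF, had 1.63 to 2.82 CPM in AAV-NC and 3.93 to 6.55 CPM in AAV-TuD livers, without overlap (log2 fold change 1.23 ± 0.20, edgeR adjusted p = 0.00146). *Apaf1*, the scaffold of the apoptosome, also separated the groups, at 0.504 to 1.43 and 1.49 to 2.37 CPM (log2 fold change 0.94 ± 0.25, edgeR adjusted p = 0.0252). It no longer passed without AAV-NC liver 2, 6 or 8 or AAV-TuD liver 4. *Apaf1* had only 4 to 12 reads in AAV-NC livers, so that AAV-TuD livers were needed to meet the filter on low counts. Its call and its lack of overlap carry less weight for that reason. *Tnfrsf10b*, the receptor for the death ligand TRAIL, rose from 0.397 ± 0.252 to 1.30 ± 0.515 CPM (edgeR adjusted p = 0.0289). *Tnfrsf10b* had 0 to 7 reads in AAV-NC livers and passed the filter on low counts only through 5 AAV-TuD livers, so that a gene admitted in this way had to be higher there and its call supports nothing. AAV-TuD liver 3 lay within the control range. The call was lost without AAV-NC liver 1 or 6, and the gene was not tested when each of the other 5 AAV-TuD livers was left out in turn. Of the DNA repair and metabolism genes, 0 of 15 passed in edgeR and 1 was higher at an unadjusted p under 0.05, and the log2 fold changes lay between -0.25 and 0.40.

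Within the groups, 10 of the 44 genes had an r with *Cdkn1a* of at least 0.5, which is 22.7%, against 9.57% of all genes. *Abhd4*, a lipase gene in the repair and metabolism list, had r = 0.91 and did not pass the threshold between the groups (log2 fold change 0.15 ± 0.13, edgeR adjusted p = 0.508). None of the 5 genes that rose was among these 10. *Zmat3* had r = -0.07, *Apaf1* -0.06, *Tnfaip8* -0.37, *Plk2* -0.39 and *Tnfrsf10b* 0.16. A promoter window was given for 36 of the 44 genes, with a p53 half-site in 9 and a pair in 1. *Apaf1* and *Plk2* had a window without a match, and *Zmat3*, *Tnfaip8* and *Tnfrsf10b* had no window.

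**Figure D3:**
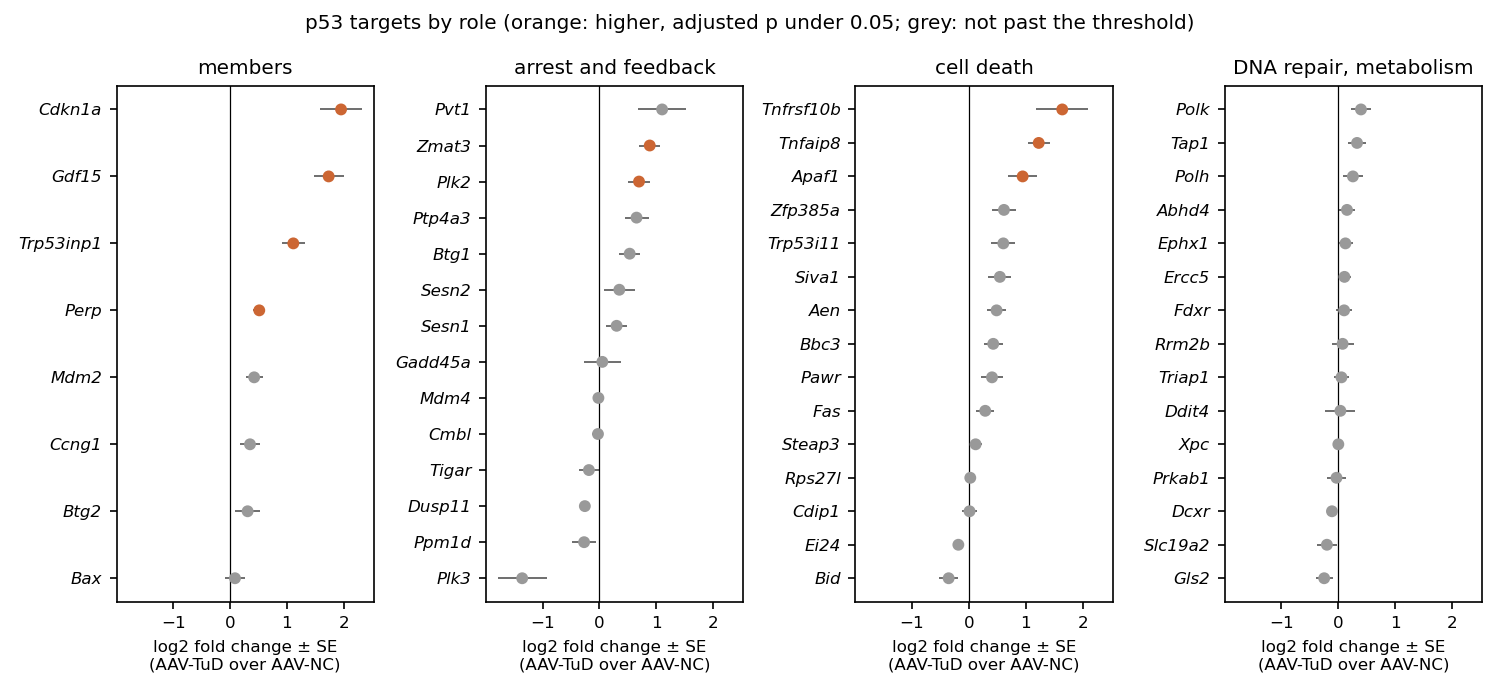
Log2 fold change of AAV-TuD over AAV-NC with its standard error for the 8 p53 target genes chosen by symbol and for 44 other p53 targets in 3 groups by role. Orange points passed the threshold and grey points did not, and 4 of 8, 2 of 14, 3 of 15 and 0 of 15 genes are orange from left to right.

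The gene of p53 itself and its main inhibitors did not pass the threshold. *Trp53*, which encodes p53, had 3.65 to 5.66 CPM in AAV-NC and 4.46 to 6.48 CPM in AAV-TuD livers, with a log2 fold change of 0.27 that did not pass (edgeR adjusted p = 0.309). Its mRNA says nothing of the protein, which is controlled mainly by degradation. *Mdm4*, a partner of *Mdm2* that inhibits p53, had a log2 fold change of -0.02 (edgeR adjusted p = 0.921). *Ppm1d*, the phosphatase that switches p53 signalling off, had -0.27 (edgeR adjusted p = 0.443).

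Of 25 p53 regulators tested, 1 rose and 4 fell, against 7.24% and 4.33% of all genes. The median log2 fold change of the 25 was -0.02. The gene that rose was *Chek1*, a checkpoint kinase that is itself made in dividing cells, with a log2 fold change of 1.26 ± 0.33 (edgeR adjusted p = 0.0220). It had 3 to 9 reads in AAV-NC livers and passed the filter on low counts only through 5 AAV-TuD livers, so that this call supports nothing. It was lost without AAV-NC liver 2 or 6, and the gene was not tested when each of those 5 livers was left out in turn. The ribosomal proteins *Rpl5* and *Rpl23*, which hold back *Mdm2* when ribosomes are not assembled, fell by 0.29 and 0.28. The ubiquitin protease *Usp7* and the ubiquitin ligase *Cop1* fell by 0.22 and 0.28. For *Rpl5*, *Rpl23* and *Usp7* all AAV-TuD livers lay below all controls. The same held for *Rpl11*, which did not pass (edgeR adjusted p = 0.0913). These are 4 of 25 genes, against 3.28% of all genes. The paper lists the ribosome first among the pathways that were lower in AAV-TuD livers. With library size alone none of the 4 regulators that fell passed, and *Cop1* lost the call in 10 of all 18 alternatives. *Usp7* lost it with library size alone and in 8 others. Without AAV-TuD liver 3, 2 of the 25 regulators rose.

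p21 belongs to a family of cyclin-dependent kinase inhibitors, of which 4 others were tested. *Cdkn2c* (p18), an inhibitor of CDK4 and CDK6, was the only one of these to rise. It had 0.681 to 1.55 CPM in AAV-NC and 2.82 to 4.89 CPM in AAV-TuD livers, with no overlap. The log2 fold change was 1.97 ± 0.25 (edgeR adjusted p = 0.000252). *Cdkn2c* had only 7 to 13 reads in AAV-NC livers, so that AAV-TuD livers were needed to meet the filter on low counts. AAV-TuD liver 3, which was low for *Cdkn1a*, had 4.04 CPM of *Cdkn2c*. *Cdkn1b* (p27) had a log2 fold change of 0.04 and *Cdkn1c* (p57) of 0.01, and neither passed.

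Among 14 cyclins, kinases and pocket proteins that p21 binds or acts on, 4 rose and 0 fell in edgeR. Over all genes 7.24% rose and 4.33% fell. The median log2 fold change of the 14 was 0.41, and 1 of them was lower at an unadjusted p under 0.05. DESeq2 and limma-voom called 4 higher and 0 lower too. The 4 are named after their values were seen. *Ccnd1*, encoding cyclin D1, rose from 12.02 ± 3.23 to 36.1 ± 13.9 CPM (edgeR adjusted p = 0.00133), and *Cdk6*, its kinase, from 20.5 ± 3.55 to 32.7 ± 5.004 CPM. *Ccnd2* rose by 0.38 on the log2 scale, and the pocket protein *Rbl1* by 1.18. *Rbl1* no longer passed without AAV-NC liver 1 or 6 or AAV-TuD liver 4. It had only 8 to 14 reads in AAV-NC livers, so that AAV-TuD livers were needed to meet the filter on low counts.

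The DREAM complex shuts off cell cycle genes when p21 is active, and a list of these genes was therefore read beside *Cdkn1a*. Of 30 listed genes only 18 were tested. Of these 18 genes 12 rose and 0 fell in edgeR, against 7.24% and 4.33% of all genes. The median log2 fold change of the 18 was 1.30. None was lower at an unadjusted p under 0.05 or in DESeq2 or limma-voom. Of the 12, *Mcm5* and *Tpx2* had no AAV-NC liver over 10 reads and passed the filter on low counts only through AAV-TuD livers. The calls of these genes support nothing. Of the others, *Cdk1*, the mitotic kinase, rose by 2.36 on the log2 scale and *Top2a*, the topoisomerase of dividing cells, by 2.18. *Cdk1* had only 0.501 to 1.75 CPM in AAV-NC livers, so that AAV-TuD livers were needed to meet the filter. Some others of the 12 were as low in AAV-NC livers, and the count and the median carry less weight for that reason. The summed level of the 18 genes was 31.8 to 48.5 CPM in AAV-NC livers. It was 41.6 CPM in AAV-TuD liver 3 and 75.6 to 136 CPM in the other 5 AAV-TuD livers. The AAV-TuD liver that lay inside the control range for *Cdkn1a* thus lay inside it for this sum too. Without it, 16 of the 18 rose. Within the groups the median r with *Cdkn1a* was 0.46. An r of at least 0.5 was found for 9 of the 18, against 9.57% of all genes. These r values were not examined without AAV-TuD liver 3.

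*Cdkn1a* and *Gdf15* also respond to signals other than p53, and lists for these were read in the same way. Their counts are to be read against the 7.24% of all genes that rose and the 4.33% that fell. Listed genes that were not tested are left out of these counts. All AAV-TuD livers lay above all controls for 4.11% of all genes. Of 15 stress response genes 1 rose, *Atf3*, a stress-induced transcription factor, by 1.73 on the log2 scale (edgeR adjusted p = 0.0387). It was not called in limma-voom or without AAV-NC liver 1, 2, 6 or 7 or AAV-TuD liver 4, 9 or 10. It had 0.250 to 1.36 CPM in AAV-NC livers, so that AAV-TuD livers were needed to meet the filter. The paper names *Atf3* a known target of the microRNA cluster and reports more of its mRNA in livers with the decoy. *Atf4*, the main factor of the integrated stress response, had a log2 fold change of -0.06 and *Ddit3* (CHOP) of 0.14, both named after their values were seen. Of 14 early response genes 5 rose and 0 fell in edgeR (1 was lower in DESeq2 and at an unadjusted p under 0.05), among them *Klf6* by 1.09, *Jun* by 0.81 and *Jund* by 0.44, with no overlap between the groups for these 3. The count of 5 went down to 2 without AAV-NC liver 6, and to 3 in limma-voom or without AAV-NC liver 1, 2 or 7 or AAV-TuD liver 4. Without AAV-TuD liver 3 this count was 6, and 2 stress response genes rose. Of 19 glucocorticoid and FOXO genes 0 passed in edgeR, DESeq2 or limma-voom and 1 was lower at an unadjusted p under 0.05, and the most abundant, *Pck1*, *Tat* and *Klf9*, had log2 fold changes of -0.07, -0.17 and -0.12. Of 12 further genes of the BCL-2 family, to which *Bax* belongs, 0 passed in edgeR, 4 were higher and 1 lower at an unadjusted p under 0.05, and 2 passed in DESeq2 and 1 in limma-voom. Of 11 genes linked with p21 in senescence 4 rose, *Tnfrsf10b* among them, and 0 fell in edgeR or at an unadjusted p under 0.05, and 2 rose without AAV-NC liver 1 or AAV-TuD liver 4, 10 or 11. Some genes stand in more than one of these lists (*Atf3*, *Sesn1*, *Sesn2*, *Ddit4*, *Btg1*, *Bbc3*, *Bid*, *Mdm4* and *Ppm1d* among them).

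Markers of liver cell types moved between the groups as well. Their counts, here and in the next paragraph, are to be read against 7.24% of all genes higher and 4.33% lower. Hepatocyte markers, which define the labelled tissue, summed to 45936 to 52869 CPM in AAV-NC and 54578 to 61878 CPM in AAV-TuD livers. *Alb* was the largest part of these sums, with means of 21096 CPM in AAV-NC and 28044 CPM in AAV-TuD livers. The median log2 fold change of the 10 genes was -0.12, with 4 above 0. Of these 10 genes 0 rose in edgeR and 2 in DESeq2 and limma-voom, and *Hnf4a* fell by 0.38 on the log2 scale. Of 10 Kupffer cell and macrophage markers 7 rose (*Vsig4*, *C1qb* and *Csf1r* with the smallest p values). Their sum was 115 to 175 CPM in AAV-NC livers, 130 CPM in AAV-TuD liver 3 and 200 to 376 CPM in the other AAV-TuD livers. Their median r with *Cdkn1a* within the groups was 0.65. An r of at least 0.5 was found for 8 of 10, against 9.57% of all genes. These r values were not examined without AAV-TuD liver 3. The Kupffer cell sum and *Cdkn1a* were thus low in the same AAV-TuD liver, and the part of these cells in the *Cdkn1a* values was not tested.

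The other non-parenchymal lists had lower median r with *Cdkn1a*, at 0.29 for neutrophil and monocyte, 0.10 for endothelial, 0.04 for cholangiocyte and -0.26 for stellate cell markers, against -0.01 over all genes. Of 10 stellate cell and fibroblast markers 9 rose, led by *Col3a1*, *Col1a1* and *Col1a2*, and their sum was 177 to 249 CPM in AAV-NC and 323 to 453 CPM in AAV-TuD livers. Liver 3 had 378 CPM, so that it was not low for these genes. Without it, all 10 rose. Of 10 cholangiocyte markers only 6 were tested, and 5 of these rose (*Spp1*, *Epcam* and *Sox9* first). The sums of the 6 were 24.5 to 46.3 and 52.9 to 86.4 CPM. *Epcam* and *Krt23* passed the filter only through AAV-TuD livers, so that their calls support nothing. Of 10 neutrophil and monocyte markers only 5 were tested, and 4 of these rose (*Ccr2*, *Cybb* and *Lyz2* first). The sums of the 5 were 28.0 to 43.7 and 46.3 to 108 CPM. *Ccr2* passed the filter only through AAV-TuD livers, so that its call supports nothing. Of 10 sinusoidal endothelial markers 0 passed in edgeR, DESeq2 or limma-voom and 1 was higher at an unadjusted p under 0.05 (*Ptprb*, *Kdr* and *Clec4g* are the most abundant), with sums of 272 to 301 and 276 to 294 CPM. None of 10 markers of T, B and NK cells passed the filter on low counts. The part of these cells in the p53 target values was not tested either.

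**Figure D4:**
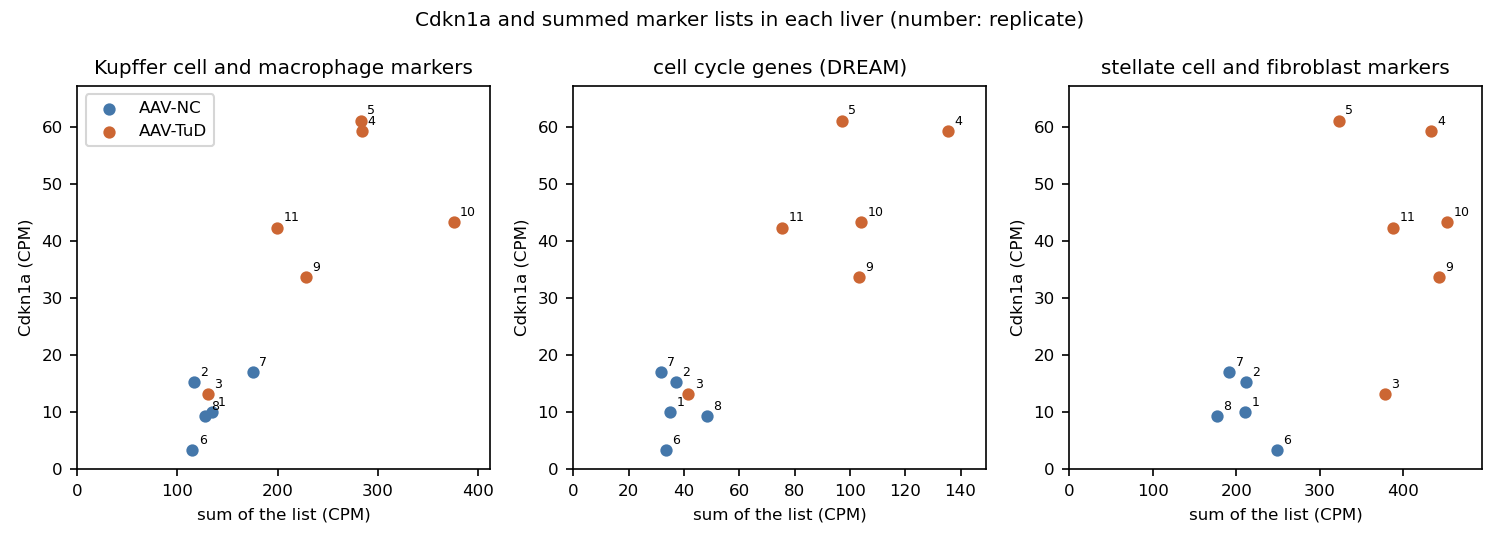
*Cdkn1a* in CPM (vertical axis) against the summed CPM of Kupffer cell and macrophage markers, cell cycle genes of the DREAM complex, and stellate cell and fibroblast markers (horizontal axes) in 5 AAV-NC livers (blue) and 6 AAV-TuD livers (orange). AAV-TuD liver 3 lies with the AAV-NC livers in the first 2 panels, at 130 and 41.6 CPM, and with the AAV-TuD livers in the third, at 378 CPM.

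Among 8371 genes that averaged 50 reads or more, the 5 whose deviations were most like those of *Cdkn1a* over the 11 livers were *Brca2* (r = 0.92), *Abhd4* (0.91), *Tada3* (0.91), *Hars2* (0.90) and *Tspo* (0.90). *Brca2* acts in repair of DNA breaks by homologous recombination, *Tada3* is a subunit of histone acetyltransferase complexes, *Hars2* charges the histidine tRNA of mitochondria and *Tspo* is a protein of the outer mitochondrial membrane. None of the 5 differed between AAV-TuD and AAV-NC at the threshold, with log2 fold changes from -0.11 to 0.26. Their slopes on *Cdkn1a* did not pass either, with edgeR adjusted p values of 0.535 for 4 of them and 0.602 for *Tspo*. As the top of a long ranking, these coefficients are a description of the 11 livers.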

How the data were processed

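QuantSeq 3′ mRNA libraries were made by the authors from 500 ng liver RNA of 5 AAV-NC and 6 AAV-TuD mice. After trimming (BBDuk) and alignment to GRCm38 (STAR 2.5.3a), reads were assigned to genes by Rsubread. The deposited counts are not normalized. DESeq2 1.38.3 is named for the study's own test. The annotation, strand setting and treatment of multi-mapping reads are not given in the sources used here.

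A gene was tested if 5 or more livers held over 10 of its reads. The quasi-likelihood test of edgeR 4.0.16 (R 4.3.3) was used with TMM scaling, and p values were adjusted by Benjamini-Hochberg over all tested genes, with 0.05 as the threshold. Log2 CPM used a prior count of 2. The relation with *Cdkn1a* was tested as a slope on its deviation from the group mean, with group in the model, and by 100000 permutations within groups (two-sided). The tests were checked on simulated data. The alternatives were DESeq2 1.42.0, limma-voom (limma 3.58.1), other scaling factors, no filter, removal of *Mup* genes and leaving out each liver. Livers of a group differed by more than sampling noise, with chi-square values per gene from 7.20 to 165 over 25 pairs. Where the labels do not name the animals, p values measure only the spread between these samples.

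The members and lists were chosen with earlier results of these data known. Genes named are the members, genes past the threshold in the lists of p53 targets, regulators and kinase inhibitors, up to 3 genes of each further list, and the 5 genes most like *Cdkn1a*.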

Additional observations from a re-analysis of the deposited data

Results flagged for a closer look

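Each group's log2 CPM was examined for a liver far from the others, in 16 groups (8 genes in AAV-NC and AAV-TuD livers), of which chance would single out about 1 in 20. One was found. *Btg2* in AAV-NC liver 8 had 12.8 CPM against 4.88 to 5.97 CPM in the other 4 controls, a gap that took 0.793 of the group's range on the log2 scale. Without this liver *Btg2* was higher with AAV-TuD, at a log2 fold change of 0.69 (edgeR adjusted p = 0.0104).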

How the results depend on the processing

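No paired analysis was possible because the groups share no replicate numbers. The alternatives gave 458 further fold changes, of which 413 kept their direction and side of the threshold, 36 lost the threshold, 3 gained it and 6 changed sign. Between 1012 genes (without AAV-TuD liver 4) and 1829 (without AAV-TuD liver 3) differed when single livers were left out, against 1543. Under the same settings 2 (without AAV-TuD liver 4) to 9 (without AAV-TuD liver 3) other p53 targets rose and 0 to 1 fell (*Plk3* or *Dusp11*). Of the 8 p53 target genes with counts, 4 rose under most settings and 5 with library size alone or without AAV-TuD liver 3 (*Mdm2* added) and without AAV-NC liver 8 (*Btg2* added), and 0 fell under any. Library size alone, under which 1386 of 1457 genes that differed were higher (966 of 1543 with TMM), gave 13 other p53 targets higher and 1 lower. It also gave 1 gene with a slope on *Cdkn1a* (*Marco*), *Mdm4* at 0.22, *Usp7* at 0.0017 and an r of 0.10 for *Btg2*. *Mdm4* was at 0.0013 in limma-voom and at -0.071 to 0.025 without single livers. Without single livers *Bax* lay between -0.0058 and 0.15, and the r with *Cdkn1a* was -0.057 to 0.49 for *Perp* and -0.32 to 0.030 for *Btg2*. The cause of these changes was not tested. Genes at about 1 CPM had some 10 reads per liver, so that *Chek1*, *Apaf1* and *Tnfrsf10b* carry large counting error. *Chek1* and *Tnfrsf10b* have 13 alternatives each, because they failed the filter without AAV-TuD liver 4, 5, 9, 10 or 11.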
